A study of Mus musculus with 18 samples.

Results

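The collagen and laminin genes of the mouse were followed through the differentiation of neurospheres (NSPs) into astrocytes and through exposure to TNF. The members are the protein-coding rows whose symbol is Col, a number, a and a number, or Lam, the letter a, b or c and a number. There are 55 of them among the 54838 genes of the count table, namely 44 collagen chains and 11 laminin chains. RNA was sequenced from 18 cultures in 6 conditions with 3 replicates each. NSPs, grown from ventricular zone cells of individual C57BL/6J wild type embryos at embryonic day 14, were kept proliferating with EGF (labelled 0h), or were plated on poly-L-ornithine in medium with 10% fetal bovine serum for 24 h, 72 h or 1 week. TNF at 50 ng/ml was present in additional 24 h and 72 h cultures, and no 1 week culture received it. All differentiated groups therefore share the change of medium, the serum and the coating, and serum exposure and differentiation cannot be told apart. The labels do not say which libraries came from which brain or culture, so p-values measure the spread between these libraries, which may be technical.

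Collagens are secreted proteins built from trimers of alpha chains that wind around each other in a triple helix. Fibrillar chains form the fibrils of connective tissue, type IV and type VIII chains form sheet-like networks, type VI chains form beaded filaments, and fibril-associated chains sit on the surface of fibrils. Laminins are cross-shaped trimers of an alpha, a beta and a gamma chain, and together with type IV collagen, nidogens and the proteoglycan perlecan they make up basement membranes. In the brain, basement membranes lie at the pial surface and around blood vessels, where astrocyte endfeet attach to them through integrins and dystroglycan. Neural stem cells also touch laminin-rich matrix in the ventricular zone.

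What unites the collagens at the sequence level is a glycine that recurs at a fixed interval along the helix, with a pair of other residues between, since only glycine is small enough for the crowded centre of the triple helix. In the coding sequences of GENCODE M21 transcripts (GRCm38), this appears as a codon starting with GG followed by a pair of other codons, and the longest such uninterrupted run had 23 repeats or more in each of the 44 collagens and 3 repeats or fewer in each of the 11 laminins. The first 10 repeats of the longest run are shown for a classical fibrillar chain and for the chains on which the results below turn, with the glycine codons in capitals.
Col1a1, codons 168 to 197: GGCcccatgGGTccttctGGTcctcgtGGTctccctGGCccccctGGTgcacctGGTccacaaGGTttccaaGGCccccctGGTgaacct
Col4a1, codons 43 to 72: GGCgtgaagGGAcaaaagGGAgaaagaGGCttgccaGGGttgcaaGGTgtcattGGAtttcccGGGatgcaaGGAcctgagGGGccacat
Col4a5, codons 1249 to 1278: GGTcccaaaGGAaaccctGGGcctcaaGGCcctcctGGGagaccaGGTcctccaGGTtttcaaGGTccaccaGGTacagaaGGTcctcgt
Col6a1, codons 256 to 285: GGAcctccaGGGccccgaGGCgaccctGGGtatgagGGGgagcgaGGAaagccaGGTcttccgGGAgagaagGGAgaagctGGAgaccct
Col8a2, codons 312 to 341: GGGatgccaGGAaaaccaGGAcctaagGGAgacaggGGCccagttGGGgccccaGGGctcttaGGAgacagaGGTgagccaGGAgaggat
The runs differ in length between the classes. In the 11 fibrillar chains the longest run had a median of 338 repeats, and each of these chains held only 2 or 3 runs of at least 6 repeats. In the 6 type IV chains the longest run had a median of 43.5 repeats and the helix was broken into 22 to 27 such runs. *Col6a1* and *Col6a2* had longest runs of 87 repeats, and *Col8a1* and *Col8a2* of 61 and 60.

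Total counts per library ranged from 12509693 to 22549627. Levels are given as CPM (counts scaled to a common library size) after TMM scaling, and levels of different genes are compared only after division by exon length (CPM per kb). A difference was called when its adjusted p, from edgeR's quasi-likelihood test with Benjamini-Hochberg adjustment over all 20067 genes tested, was under 0.05, and fold changes are log2 values ± SE. Of the 55 members, 45 passed the filter on low counts. The other 10, which are *Col1a1*, *Col1a2*, *Col2a1*, *Col6a5*, *Col6a6*, *Col13a1*, *Col24a1*, *Col25a1*, *Lamb3* and *Lamc3*, had at most 17 counts in any library and were not tested. The alpha chains of type I and type II collagen, the main fibrils of bone, skin and cartilage, were thus close to absent from all 6 conditions, with a highest level of 0.693 CPM for *Col1a1*, 0.335 CPM for *Col1a2* and 0.756 CPM for *Col2a1*.

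Cell identity was checked with marker lists. The summed level of 8 astrocyte markers lay between 5128 and 5364 CPM in NSPs, 5696 and 8145 CPM at 72 h and 2683 and 3247 CPM at 1 week, and *Gfap*, the astrocytic intermediate filament, averaged 27.1, 2432 and 63.4 CPM in these conditions. The labelled 1 week astrocytes were thus low in *Gfap*. Among the 10 fibroblast and meningeal markers, 4 to 6 had at most 3 counts in each library of a condition, *Lum* had no count in any library and *Dcn* averaged at most 0.204 CPM. Still, the summed level of this list went from 3.40 to 7.17 CPM in NSPs to 201 to 298 CPM at 72 h and 166 to 215 CPM at 1 week, most of it *Ogn* (osteoglycin, a matrix proteoglycan; 241 and 190 CPM). The 7 endothelial markers summed to at most 7.91 CPM in any library. The 10 mural markers summed to 172 to 299 CPM in NSPs and 530 to 607 CPM at 24 h, and 4 of them were tested. At 24 h *Acta2* (smooth muscle actin) rose from a mean of 5.83 to 439 CPM and *Rgs5* from 0.0591 to 1.32 CPM, while *Cspg4* fell from 117 to 38.3 CPM, and *Notch3* was at 131 and 95.9 CPM and not called. The 5 neural stem cell and cycling markers summed to 3807 to 5383 CPM in NSPs and 990 to 1427 CPM at 1 week. Of these, *Fabp7* (-3.51), *Mki67* (-7.47) and *Ccnb1* (-8.12) were called lower at 1 week against NSPs by edgeR's test, while *Nes* (-0.35) and *Prom1* (1.28) were not called. *Col4a1*, *Col16a1* and *Lama1* below were also lower at 1 week than in NSPs. From 72 h to 1 week, the largest step of *Col4a1*, *Fabp7* (-0.72), *Mki67* (0.94) and *Ccnb1* (-0.06) were not called. The part of cells expressing these markers in the results below was not tested, and in bulk RNA fewer cells of a type and less RNA per cell cannot be told apart.

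Some libraries stood apart from the others of their condition. Both replicate 1 libraries with TNF held other levels of several collagens than replicates 2 and 3, and NSP replicate 1 had lower *Col16a1*, *Col27a1* and *Col28a1* than the other NSP libraries. In the count table, replicate 3 of the 72 h condition is numbered 4. The calls with TNF were therefore also computed without both replicate 1 libraries, an alternative chosen after seeing the data.

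**Figure D1:**
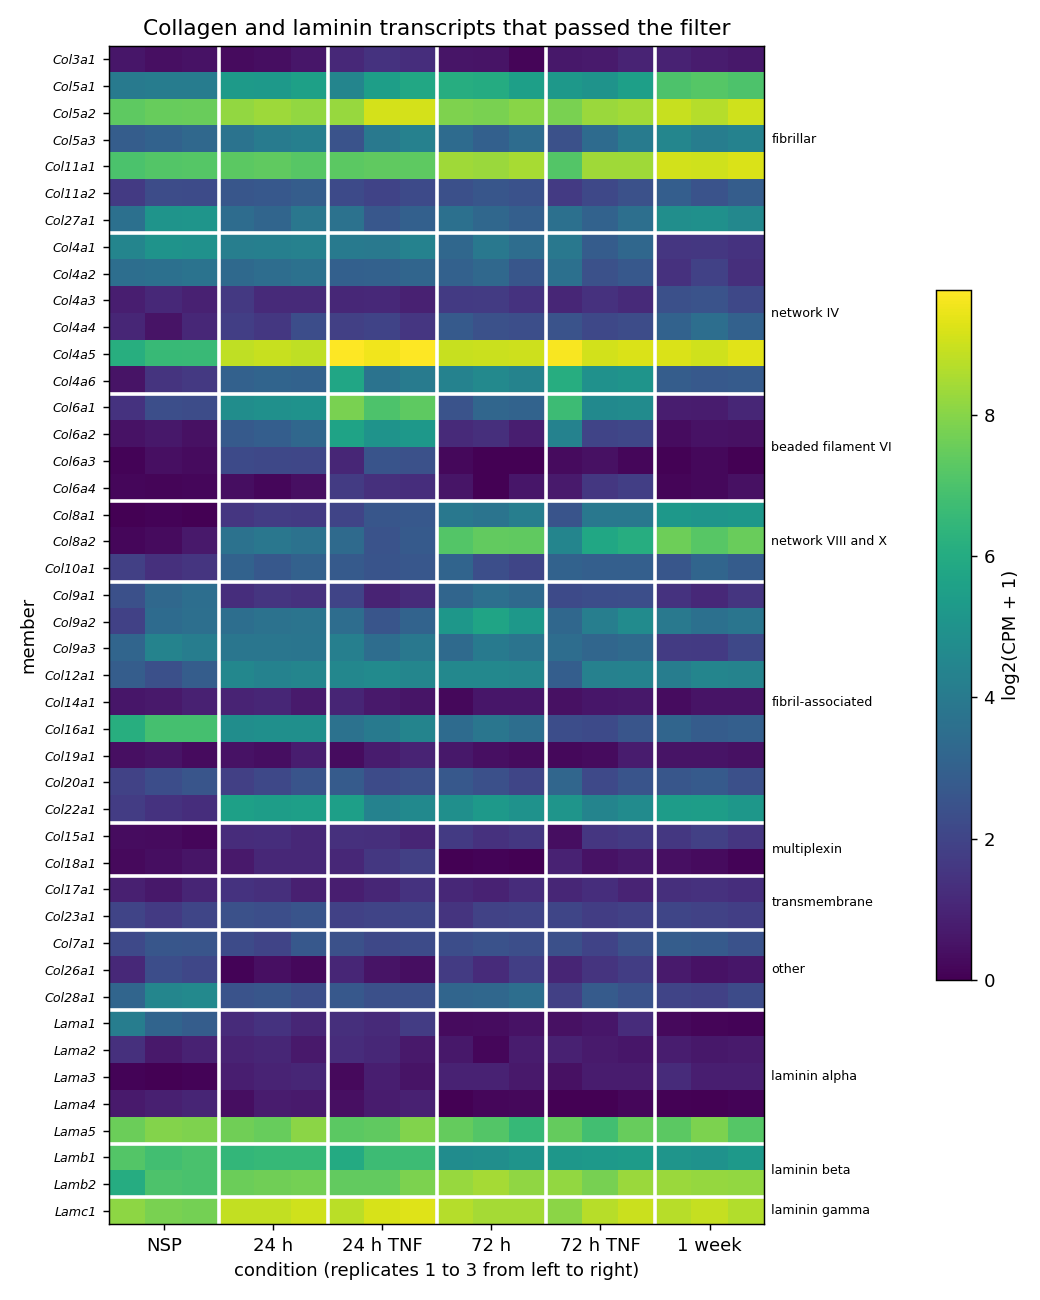
Levels of the tested members, except 1 that is not reported here, as log2(CPM + 1), colour scale at right, in the 18 libraries (columns, 3 per condition) and ordered by chain class (rows). *Col4a5*, *Col5a2*, *Col11a1*, *Lamc1*, *Lamb2* and *Lama5* were bright in most conditions, while *Col8a1* and *Col8a2* went from dark to bright along differentiation.

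From NSPs to 24 h, 22 of the 45 members that passed the filter rose and 8 fell. Among all genes tested 52.7% were called in this comparison, 27.2% higher and 25.5% lower. From 24 h to 72 h, 9 members rose and 12 fell, where 24.8% of all genes were called (12.2% higher, 12.6% lower). From 72 h to 1 week, 6 rose and 9 fell, and here 6.63% of all genes were called (2.68% higher, 3.96% lower). All of these calls from 72 h to 1 week were collagens, and of the 9 tested laminins none was called by edgeR or DESeq2, and 0 had an unadjusted p under 0.05 with edgeR. Over the whole course from NSPs to 1 week, 20 rose and 11 fell, where the share among all genes was 58.6% (29.6% higher, 29.1% lower). The median fold change of the members was 0.75 at 24 h against NSPs and 0.64 at 1 week against NSPs, beside 0.06 over all genes in each comparison. The medians were 0.76 and 0.68 over the 36 tested collagens and -0.06 and -0.34 over the 9 tested laminins. Comparisons that share a condition, such as 24 h and 1 week against the same NSP libraries, are not independent of each other.

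Summed over the 44 collagens, the level was 673 ± 112 CPM in NSPs, 1236 ± 39.5 CPM at 24 h, 1547 ± 47.0 CPM at 72 h and 2154 ± 133 CPM at 1 week (mean ± SD, n = 3). The libraries of successive conditions did not overlap. The 11 laminins summed to 703 ± 15.2 CPM in NSPs, 1001 ± 91.7 CPM at 24 h, 849 ± 83.8 CPM at 72 h and 947 ± 78.5 CPM at 1 week. Each differentiated library was above each NSP library. The 24 h libraries (946 to 1107 CPM) were all above those at 72 h (757 to 922 CPM), and the 1 week libraries (881 to 1034 CPM) overlapped with both. The order of the collagens by level per length also differed. In NSPs the leading chains were *Col5a2* (18.2 ± 1.26 CPM per kb), *Col16a1* (14.9 ± 4.15), *Col4a5* (12.9 ± 2.24) and *Col11a1* (10.8 ± 0.822), and each neighbouring pair was closer than the sum of their SDs. At 1 week *Col4a5* led with 87.3 ± 7.22 CPM per kb, above *Col5a2* with 49.7 ± 5.99, *Col11a1* with 43.8 ± 2.29 and *Col8a2* with 39.0 ± 5.05, and the latter 3 could not be ordered beyond their SDs. *Col4a5* made up 15.3% of the collagen sum per length in NSPs, 43.0% at 24 h and 32.8% at 1 week.

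The type IV collagens, the network chains of basement membranes, moved in opposite directions. *Col4a1* and *Col4a2*, which form the common alpha1 alpha1 alpha2 trimer, fell, while *Col4a3*, *Col4a4*, *Col4a5* and *Col4a6*, the chains of the restricted networks known from kidney, lung and smooth muscle, were higher at 1 week than in NSPs. *Col4a1* was at 20.8, 31.2 and 29.9 CPM in the 3 NSP libraries, at 17.2, 17.4 and 18.7 CPM at 24 h, at 8.70, 13.9 and 10.1 CPM at 72 h and at 1.90, 2.03 and 1.69 CPM at 1 week. It was lower at each step without overlap of the libraries, by 0.62 ± 0.24 on the log2 scale at 24 h (adjusted p = 0.0347) and by a further 0.70 ± 0.24 at 72 h (adjusted p = 0.0411). The last step was the largest, with a fold change of -2.53 ± 0.28 between 72 h and 1 week (adjusted p = 2.05e-05). *Col4a2* was level at first, with 10.4, 11.1 and 12.1 CPM in NSPs and 9.22, 10.1 and 11.5 CPM at 24 h, and ended at 1.63, 2.69 and 1.48 CPM at 1 week (1 week against NSPs -2.53 ± 0.31, adjusted p = 1.62e-06). The ratio of *Col4a1* to *Col4a2* per length moved from 2.15 ± 0.359 in NSPs to 0.905 ± 0.204 at 1 week (n = 3 each), without overlap.

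*Col4a5* took the opposite course. It was at 69.3, 94.7 and 96.0 CPM in NSPs and at 453, 491 and 452 CPM at 24 h, a rise of 2.42 ± 0.16 (adjusted p = 1.29e-09). After that it stayed between 452 and 635 CPM in the untreated libraries, and neither later step was called (adjusted p = 0.629 and 0.481). Per length there were 3.55 ± 0.170 times as many *Col4a5* as *Col4a1* reads in NSPs and 352 ± 61.8 times as many at 1 week. *Col4a6*, whose start lies near that of *Col4a5* on the X chromosome, rose from 0.444, 1.76 and 2.05 CPM in NSPs to 7.18, 7.83 and 7.33 CPM at 24 h and 19.3, 23 and 19.9 CPM at 72 h, and then fell back to 6.36, 5.70 and 6.06 CPM at 1 week. Each of these steps was called (2.37 ± 0.53, 1.47 ± 0.45 and -1.78 ± 0.45, with adjusted p = 0.00121, 0.0213 and 0.0213), although the step to 72 h lost its call in 4 of 6 fits that each left out a library (adjusted p up to 0.0683). *Col4a3* and *Col4a4* stayed low but ended higher, at 4.28, 4.71 and 3.31 CPM and at 7.33, 10.7 and 7.18 CPM at 1 week, with fold changes against NSPs of 2.11 ± 0.28 (adjusted p = 3.17e-06) and 3.25 ± 0.34 (adjusted p = 1.60e-07). The rise of *Col4a3* from 72 h to 1 week (1.02 ± 0.26, adjusted p = 0.0208) was lost in 4 of 6 fits without a library (adjusted p up to 0.103).

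**Figure D2:**
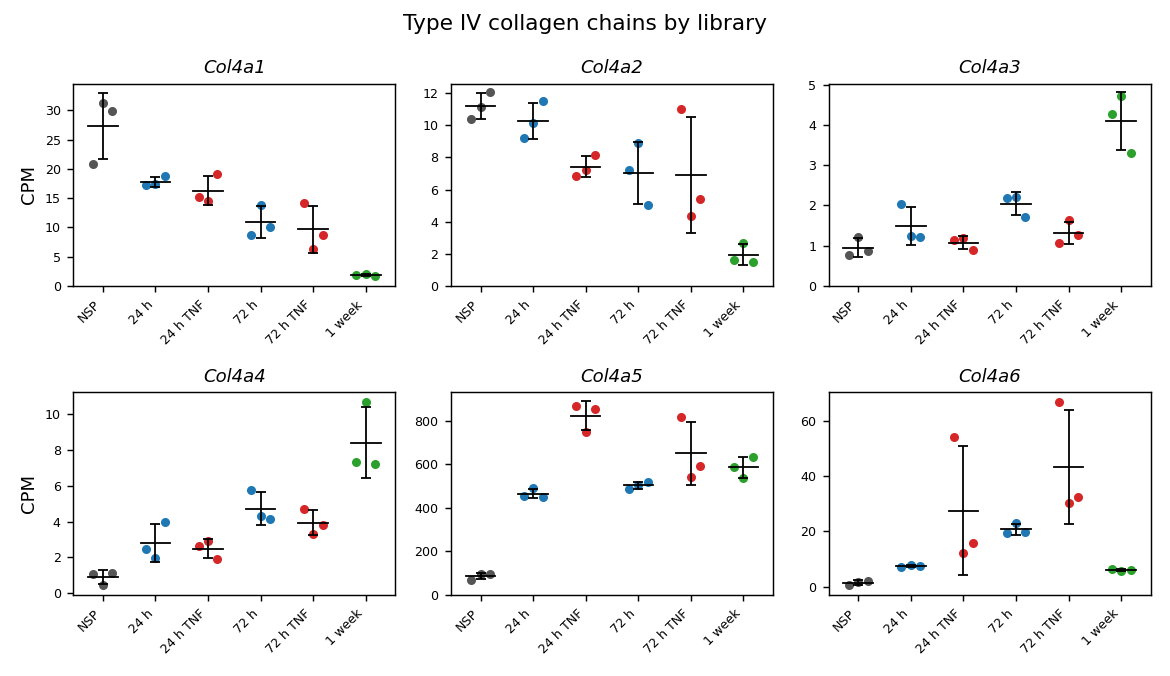
CPM of the 6 type IV collagen chains in each library (points, 3 per condition; red with TNF), with the mean (line) and SD (bars). *Col4a1* and *Col4a2* were lowest at 1 week, *Col4a5* jumped between NSPs and 24 h, and *Col4a6* was highest in the replicate 1 libraries with TNF (54.2 and 66.9 CPM).

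These chains lie in pairs in the genome. *Col4a1* (chr8:11198423-11312826, minus strand) and *Col4a2* (chr8:11312805-11449287, plus strand; GRCm38) start on opposite strands so close together that their first exons overlap by 22 bases, and *Col4a4* and *Col4a3* start on opposite strands of chromosome 1 with 71 bases between them. The sequences on the plus strand are shown since each joins a pair of members that moved the same way from NSPs to 1 week.
Overlap of Col4a1 and Col4a2, chr8:11312805-11312826: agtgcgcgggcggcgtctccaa
Between Col4a4 and Col4a3, chr1:82586850-82586920: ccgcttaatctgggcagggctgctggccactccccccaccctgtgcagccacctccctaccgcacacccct
Both stretches are rich in G and C, with shares of 72.7% and 69.0%. The strand setting of the authors' counting was not given in the sources used here, and reads within the overlap could be counted for either gene if strand was not used.

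Type VI collagens, the beaded filaments that link cells to their surrounding matrix, formed a short peak at 24 h. *Col6a1* was at 1.71, 4.06 and 3.87 CPM in NSPs, at 26.5, 28.8 and 30.1 CPM at 24 h, at 4.62, 8.41 and 7.70 CPM at 72 h and at 0.707, 0.658 and 1.06 CPM at 1 week. The rise (3.13 ± 0.47, adjusted p = 2.89e-05) and both falls (-2.03 ± 0.44 and -3.13 ± 0.59, adjusted p = 0.00219 and 0.00272) were called, so that the level at 1 week was below that of NSPs. *Col6a2* also peaked at 24 h, at a lower level, and went from 0.381, 0.549 and 0.341 CPM in NSPs to 5.74, 6.54 and 8.64 CPM at 24 h (4.01 ± 0.65, adjusted p = 5.56e-05) and back to 1.21, 1.47 and 0.770 CPM at 72 h (-2.60 ± 0.57, adjusted p = 0.00222). At 1 week it was at 0.265, 0.384 and 0.352 CPM, which was not called against 72 h (adjusted p = 0.220) or against NSPs (adjusted p = 0.750). *Col6a3*, which supplies the largest chain of the classical trimer, was at 3.55, 3.35 and 3.26 CPM at 24 h and at 0.151, 0 and 0 CPM at 72 h. All 72 h libraries were at or under the floor of 3 counts, and the 24 h level was at least 17.6-fold higher than this floor. *Col6a4* was at most at 0.495 CPM in any untreated library.

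TNF raised 3 of the 4 tested type VI chains at both times, where 2.18% of all genes were called higher at 24 h and 4.35% at 72 h. With TNF for 24 h, *Col6a1* was at 222, 132 and 163 CPM, far above each untreated 24 h library (2.59 ± 0.42, adjusted p = 0.00119). At 72 h it was at 103, 23.9 and 25.1 CPM with TNF, again without overlap with the untreated libraries (2.86 ± 0.45, adjusted p = 0.000333). The value at 72 h depended on replicate 1 with TNF, without which the fold change was 1.82 and still called. *Col6a2* was at 49.9, 31.2 and 35.4 CPM at 24 h with TNF (2.48 ± 0.48, adjusted p = 0.00511) and at 18.9, 2.96 and 3.19 CPM at 72 h with TNF (2.87 ± 0.56, adjusted p = 0.00236; without replicate 1 with TNF 1.43). *Col6a4* reached 2.20, 1.57 and 1.42 CPM at 24 h and 0.620, 2.03 and 2.50 CPM at 72 h with TNF, with fold changes of 2.85 ± 0.65 and 2.41 ± 0.61 (adjusted p = 0.0176 and 0.0157). These calls were lost in 4 and 2 of 6 fits that left out a library, with adjusted p up to 0.123 and 0.0686. *Col6a3* was not called with TNF at 24 h, where it was at 1.07, 4.85 and 4.30 CPM, replicate 1 stood apart, and the fold change was 0.00 ± 0.45. Of the 4 tested mural markers, only *Cspg4* was called with TNF at 72 h, at 17.6 to 74.5 CPM against 7.04 to 11.1 CPM (2.02, adjusted p = 0.00326). It was not called at 24 h (-0.01, adjusted p = 0.994). *Acta2* (-0.69), *Rgs5* (0.14) and *Notch3* (0.74) were not called at 72 h, and the mural list summed to 190 to 294 CPM with TNF and 251 to 327 CPM without it. The part of *Cspg4* in these results was not tested. Leaving out both replicate 1 libraries with TNF kept the 6 calls of *Col6a1*, *Col6a2* and *Col6a4*, with fold changes of 2.36, 2.26 and 2.63 at 24 h and 1.81, 1.42 and 2.81 at 72 h.

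**Figure D3:**
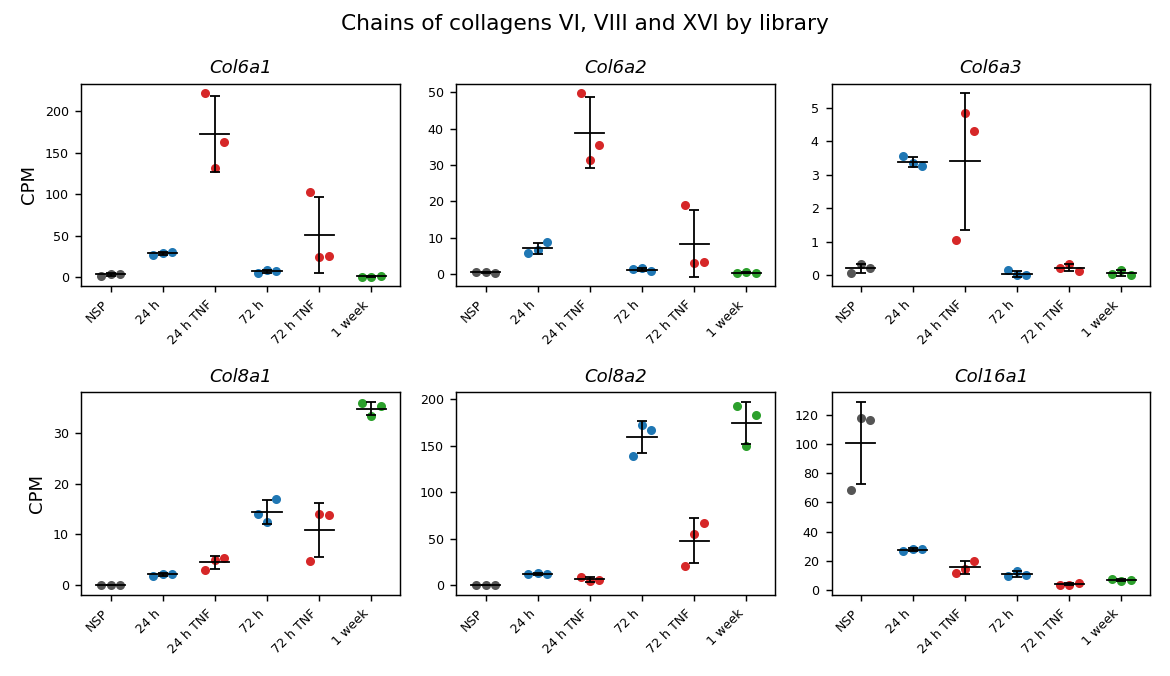
CPM of *Col6a1*, *Col6a2*, *Col6a3*, *Col8a1*, *Col8a2* and *Col16a1* in each library (points, 3 per condition; red with TNF), with the mean (line) and SD (bars). The type VI chains peaked at 24 h, higher with TNF for *Col6a1* and *Col6a2*, the type VIII chains climbed up to 1 week, and *Col16a1* was highest in NSPs.

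Type VIII collagens are short network chains known from vascular and corneal basement membranes. They were almost silent in NSPs and were among the members with the largest rise. *Col8a2* was at 0.127, 0.220 and 0.569 CPM in NSPs, at 11.8, 13.6 and 11.9 CPM at 24 h and at 140, 172 and 168 CPM at 72 h, with steps of 5.29 ± 0.50 and 3.68 ± 0.33 (adjusted p = 1.25e-07 and 3.89e-07), and it held 193, 150 and 183 CPM at 1 week. *Col8a1* had at most 3 counts in each NSP library and reached 1.89, 2.29 and 2.20 CPM at 24 h, at least 12.1-fold above the floor of 3 counts per library. It went on to 13.9, 12.4 and 16.9 CPM at 72 h and 35.8, 33.2 and 35.2 CPM at 1 week, and was then at least 198-fold above the floor in NSPs. The step from 72 h to 1 week (1.27 ± 0.29, adjusted p = 0.00988) lost its call without 72 h replicate 2 (adjusted p = 0.0695). *Ogn* also ended higher than in NSPs (means of 2.76 CPM in NSPs, 241 CPM at 72 h and 190 CPM at 1 week), but it was not called from 72 h to 1 week (-0.34), where *Col8a1* rose. Of the other tested fibroblast and meningeal markers, *Mfap5* (0.96) was called higher at 1 week against NSPs, while *Aspn* (-1.06) and *Postn* (-1.35) were not called. The part of *Ogn* in the result was not tested. *Col10a1*, the related network chain of growth plate cartilage, rose from 2.60, 1.54 and 1.82 CPM to 7.48, 5.37 and 7.09 CPM at 24 h (1.74 ± 0.30, adjusted p = 0.000113) and no later step was called.

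With TNF, *Col8a2* was lower at 72 h, at 20.8, 55.0 and 67.6 CPM against 140, 172 and 168 CPM without it (-1.74 ± 0.30, adjusted p = 0.000857). *Ogn* was lower there too (-1.44, adjusted p = 0.00246). Of the 8 astrocyte markers, 3 were called lower with TNF at 72 h, *Gfap* (-2.31, adjusted p = 0.0128), *Aldoc* (-1.57) and *S100b* (-1.64). *Gja1* (-1.35), *Aqp4* (-0.43), *Slc1a3* (-0.08), *Slc1a2* (0.31) and *Aldh1l1* (0.59) were not called. At 24 h *Col8a2* was at 9.45, 4.62 and 5.78 CPM with TNF, below all untreated libraries but not called (-0.90 ± 0.33, adjusted p = 0.182). *Col8a1* was at 3.02, 5.07 and 5.43 CPM at 24 h with TNF (1.07 ± 0.34, adjusted p = 0.108, and called by DESeq2 with adjusted p = 0.0479) and at 4.85, 14.0 and 13.9 CPM at 72 h (-0.40 ± 0.29, adjusted p = 0.406). Without both replicate 1 libraries with TNF, the lower level of *Col8a2* and the higher level of *Col8a1* at 24 h were called (-1.26 and 1.29, adjusted p = 0.00146 and 0.00112), and the difference of the *Col8a1* effect between the 2 times was called as well (-1.35, adjusted p = 0.0267).

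Among the fibrillar collagens, types V and XI supply the minor chains that start and limit the growth of fibrils. *Col5a1* was at 14.9, 16.1 and 16.1 CPM in NSPs, at 39.0, 36.7 and 46.3 CPM at 24 h and at 131, 147 and 131 CPM at 1 week, and rose at 24 h (1.37 ± 0.25, adjusted p = 0.000213) and from 72 h to 1 week (1.23 ± 0.24, adjusted p = 0.00385). *Col5a2* rose from 161, 177 and 184 CPM to 289, 318 and 289 CPM at 24 h (0.78 ± 0.19, adjusted p = 0.00235). At 72 h it was at 232, 223 and 260 CPM, below each 24 h library but not called (-0.33 ± 0.19, adjusted p = 0.234), and it then rose to 491, 413 and 525 CPM at 1 week (1.00 ± 0.19, adjusted p = 0.00297). *Col11a1* was at 126 to 146 CPM in NSPs and 148 to 165 CPM at 24 h, and then rose to 333, 314 and 360 CPM at 72 h (1.11 ± 0.21, adjusted p = 0.000695). Its further rise to 545, 538 and 591 CPM at 1 week (0.73 ± 0.21, adjusted p = 0.0395) was lost in each of 6 fits without a library, with adjusted p up to 0.161. *Col5a3* and *Col11a2* were at most at 21.1 and 6.54 CPM in any library and were called higher at 24 h and at 1 week against NSPs.

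*Col27a1*, a fibrillar chain of cartilage, dipped in the middle of the course. It was at 11, 31.8 and 32.8 CPM in NSPs, where replicate 1 stood apart and overlapped with 24 h, at 9.98, 8.0 and 13.5 CPM at 24 h and at 27.2, 28.8 and 22.8 CPM at 1 week, with fold changes of -1.27 ± 0.34 at 24 h (adjusted p = 0.00467) and 1.58 ± 0.35 from 72 h to 1 week (adjusted p = 0.00823). The latter was lost without 72 h replicate 3 (adjusted p = 0.0533). *Col3a1*, the partner of type I collagen in soft tissue, did not exceed 0.927 CPM in an untreated library. With TNF for 24 h it was at 1.20, 1.72 and 1.42 CPM (2.12 ± 0.42, adjusted p = 0.00661), and without 24 h replicate 2 the adjusted p was 0.0543. At 72 h with TNF it was at 0.563, 0.638 and 0.938 CPM, which was above the untreated libraries but not called (1.13 ± 0.44, adjusted p = 0.119). *Col5a2* was higher at 24 h with TNF in replicates 2 and 3 (558 and 564 CPM) than in replicate 1 (308 CPM). It was not called with all libraries (0.68, adjusted p = 0.0572) and was called without both replicate 1 libraries with TNF (0.91, adjusted p = 0.000172), as well as by DESeq2 (adjusted p = 0.0255).

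Among the fibril-associated chains, which decorate fibrils without forming them, *Col16a1* was the only one among the leading chains of NSPs. Its levels of 68.5, 118 and 116 CPM in NSPs fell to 26.8, 28.3 and 28.3 CPM at 24 h (-1.86 ± 0.21, adjusted p = 8.84e-07) and to 9.69, 13.2 and 10.5 CPM at 72 h (-1.32 ± 0.21, adjusted p = 0.000169). At 1 week it was at 7.99, 6.25 and 6.76 CPM, below each 72 h library but not called (-0.66 ± 0.22, adjusted p = 0.0824). TNF lowered it further at both times, to 12.0, 14.8 and 20.1 CPM at 24 h (-0.83 ± 0.21, adjusted p = 0.0318) and to 3.89, 3.54 and 4.94 CPM at 72 h (-1.43 ± 0.23, adjusted p = 0.000441). The call at 24 h was lost in 5 of 6 fits without a library (adjusted p up to 0.141) and without both replicate 1 libraries with TNF (-0.67, adjusted p = 0.119). *Col22a1*, known from tissue junctions, rose in reverse, from 2.35, 1.70 and 1.42 CPM in NSPs to 45.3, 41.8 and 45.1 CPM at 24 h (4.60 ± 0.30, adjusted p = 1.29e-09), and was at 28.5 to 42.3 CPM at 72 h and 1 week. *Col12a1* rose from 6.35, 4.17 and 6.31 CPM to 22.1, 19.1 and 20.9 CPM at 24 h (1.89 ± 0.28, adjusted p = 2.24e-05), and neither later untreated step was called. *Col22a1* was at 44.3, 18.9 and 23.8 CPM at 24 h with TNF. It was not called with all libraries (-0.60, adjusted p = 0.230) and was called lower without both replicate 1 libraries with TNF (-1.05, adjusted p = 0.00139).

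The type IX chains, which cover type II fibrils in cartilage, followed different courses. *Col9a1* was at 4.25, 8.79 and 10.5 CPM in NSPs, at 1.44, 1.85 and 1.63 CPM at 24 h, at 8.02, 10.9 and 9.19 CPM at 72 h and at 1.68, 1.21 and 1.83 CPM at 1 week, and each of these 3 steps was called (-2.25 ± 0.36, 2.50 ± 0.36 and -2.58 ± 0.35, with adjusted p = 4.50e-05, 4.72e-05 and 0.000170). *Col9a2* was highest at 72 h as well, at 35.0, 50.6 and 35.9 CPM, after 10.4, 12.0 and 12.5 CPM at 24 h (1.80 ± 0.39, adjusted p = 0.00201). *Col9a3* held 8.12 to 19.8 CPM up to 72 h and then fell to 2.21, 2.19 and 3.38 CPM at 1 week (-2.26 ± 0.30, adjusted p = 0.000108). With TNF at 72 h, *Col9a1* (3.55, 3.89 and 4.13 CPM) and *Col9a2* (8.56, 17.1 and 25 CPM) were lower, with fold changes of -1.28 ± 0.32 and -1.26 ± 0.38 (adjusted p = 0.0170 and 0.0408). Leaving out a library ended these calls in 3 and 4 of 6 fits, with adjusted p up to 0.0855 and 0.179, and without both replicate 1 libraries with TNF *Col9a2* was not called (adjusted p = 0.105). *Col14a1*, *Col19a1* and *Col20a1* were not called in any of the 7 comparisons, except *Col14a1* from 24 h to 72 h at levels of at most 1.06 CPM.

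The remaining collagens were low. *Col28a1*, known from peripheral nerve, fell from 8.12, 21.6 and 23.2 CPM in NSPs to 4.69, 5.09 and 4.07 CPM at 24 h (-1.93 ± 0.32, adjusted p = 8.29e-05), partly returned at 72 h (8.10, 8.65 and 10.6 CPM) and ended at 3.05, 2.74 and 3.73 CPM. It was lower at 72 h with TNF (2.65, 6.04 and 4.44 CPM; -1.06 ± 0.32, adjusted p = 0.0440), a call lost in 4 of 6 fits without a library and without both replicate 1 libraries (adjusted p = 0.146). *Col26a1* went from 1.21, 3.90 and 3.24 CPM in NSPs to 0.0756, 0.335 and 0.163 CPM at 24 h (-3.73 ± 0.59, adjusted p = 4.95e-05) and back to 2.27, 1.29 and 2.48 CPM at 72 h (3.25 ± 0.61, adjusted p = 0.000675), and its fall to 1 week (-1.98, adjusted p = 0.0224) was lost in 5 of 6 fits without a library. *Col15a1*, a basement membrane chain with an endostatin-like end, rose from 0.254, 0.220 and 0.114 CPM to 1.36, 1.40 and 1.14 CPM at 24 h (2.70 ± 0.59, adjusted p = 0.000889). *Col18a1*, the source of endostatin, was at 0.605, 1.12 and 1.14 CPM at 24 h and had at most 1 count in each 72 h library, and with TNF at 72 h it was at 0.902, 0.406 and 0.563 CPM, at least 3.25-fold above the floor of 3 counts per library (adjusted p = 0.00196). The transmembrane chains *Col17a1* and *Col23a1* and the anchoring fibril chain *Col7a1* were at most at 1.71, 4.81 and 6.27 CPM in any library.

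Single laminin chains rose or fell during differentiation. *Lama1*, the alpha chain of early embryonic basement membranes, was at 16.7, 7.96 and 6.37 CPM in NSPs, at 1.28, 1.68 and 1.06 CPM at 24 h and at 0.177, 0.110 and 0.0704 CPM at 1 week, with fold changes of -2.92 ± 0.41 at 24 h (adjusted p = 1.29e-05) and -2.19 ± 0.56 from 24 h to 72 h (adjusted p = 0.00756). *Lama5*, the most abundant alpha chain here, was level at 24 h (190, 247 and 235 CPM in NSPs against 202, 180 and 264 CPM) and was called lower from 24 h to 72 h only (175, 140 and 91.4 CPM; -0.67 ± 0.24, adjusted p = 0.0494). *Lama2*, the alpha chain of brain and muscle laminin that astrocytes are known to supply, was at most at 1.52 CPM and was not called in any comparison. *Lama4*, a vascular alpha chain, fell to at most 3 counts in each 1 week library, and *Lama3*, an epithelial alpha chain, rose from at most 1 count in each NSP library to 0.756, 0.950 and 1.06 CPM at 24 h, at least 5.26-fold above the floor of 3 counts per library.

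The beta chains moved in opposite directions. *Lamb1*, the beta chain of embryonic laminins, fell from 141, 110 and 123 CPM in NSPs to 86.8, 91.6 and 92.7 CPM at 24 h and 25.8, 27.1 and 32.3 CPM at 72 h, with steps of -0.46 ± 0.16 and -1.67 ± 0.17 (adjusted p = 0.0215 and 1.22e-06). *Lamb2*, the beta chain of mature vessels and synapses, rose from 65.4, 129 and 124 CPM to 189, 201 and 210 CPM at 24 h and 302, 346 and 278 CPM at 72 h, with steps of 0.91 ± 0.20 and 0.63 ± 0.20 (adjusted p = 0.00104 and 0.0268). Per length, the ratio of *Lamb2* to *Lamb1* was 1.44 ± 0.609 in NSPs and 3.60 ± 0.0780 after 24 h, and then 18 ± 3.51 after 72 h and 14.5 ± 1.73 after 1 week (n = 3), and the libraries at 72 h and 1 week did not overlap with those of NSPs. With the length of the longest transcript in place of all exons, the ratio was 0.908 in NSPs and 9.17 at 1 week, so that which beta chain was higher in NSPs depended on the length used. The sum of the beta chains per length relative to the gamma chains was 1.09 ± 0.285 in NSPs and 1.01 ± 0.106 at 1 week, which overlapped, whereas the sum of the alpha chains relative to the gamma chains was 0.748 ± 0.160 and 0.296 ± 0.0426, without overlap.

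*Lamc1*, the common gamma chain, rose from 273, 222 and 211 CPM to 460, 467 and 533 CPM at 24 h (1.05 ± 0.19, adjusted p = 0.000175) and was at 415, 476 and 397 CPM at 1 week. No laminin was called with TNF at 24 h or 72 h. *Lamc1* was at 427, 572 and 631 CPM at 24 h with TNF and at 268, 423 and 506 CPM at 72 h with TNF, overlapping with the untreated libraries at both times (0.16 ± 0.19 and 0.11 ± 0.19, adjusted p = 0.799 and 0.758). By unadjusted p under 0.05, 2 of the 9 tested laminins differed at each time with edgeR. The share of all genes at this threshold was not counted, so nothing is read from this number.

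**Figure D4:**
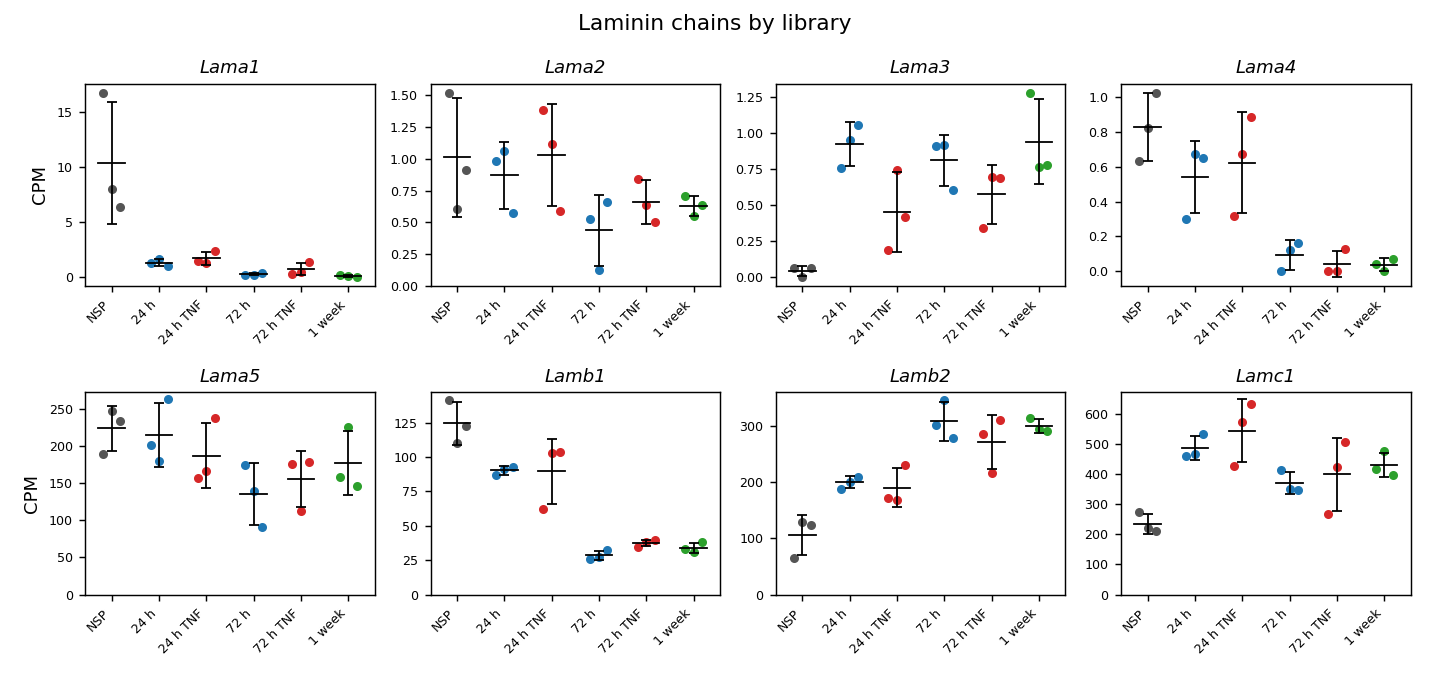
CPM of 8 laminin chains in each library (points, 3 per condition; red with TNF), with the mean (line) and SD (bars). *Lama1* and *Lamb1* were highest in NSPs, *Lamb2* rose with differentiation, and the libraries with TNF overlapped with the untreated ones of the same time except for *Lama3* at 24 h, which lay lower, and *Lamb1* at 72 h, which lay higher.

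Across all members, TNF for 24 h raised 6 and lowered 1 of the 45 that passed the filter, where 3.5% of all genes were called (2.18% higher, 1.32% lower). TNF for 72 h raised 4 and lowered 5, where 9.56% of all genes were called (4.35% higher, 5.21% lower). Leaving out 1 library at a time gave 3 to 6 rises and 0 to 1 falls at 24 h, and 3 to 5 rises and 2 to 5 falls at 72 h. Leaving out both replicate 1 libraries with TNF gave 8 rises and 2 falls for the shorter exposure and 5 rises and 4 falls for the longer. With all libraries, all of these calls were collagens. *Col6a1*, *Col6a2* and *Col6a4* were called higher and *Col16a1* lower at both times. The rise of *Col4a5* was called at 24 h, with 868, 748 and 858 CPM with TNF (0.83 ± 0.15, adjusted p = 0.00329), and at 72 h it was at 818, 544 and 592 CPM, above the untreated libraries but not called (0.37 ± 0.15, adjusted p = 0.131). *Col4a6* was at 54.2, 12.2 and 15.8 CPM at 24 h with TNF (1.88 ± 0.45, adjusted p = 0.0232), a value that rested on replicate 1, without which the fold change was 0.89 and the adjusted p 0.246. At 72 h with TNF *Col4a6* was at 66.9, 30.1 and 32.5 CPM, above each untreated library but not called (1.06 ± 0.42, adjusted p = 0.128), whereas a fit of only the groups compared called it (1.09, adjusted p = 0.0362). With the filter on low counts, no member had a called difference of the TNF effect between 24 h and 72 h by edgeR, where 0.458% of all genes were called (0.135% higher, 0.324% lower). None had one by DESeq2. With each tool, 7 members had an unadjusted p under 0.05, and the share of all genes at that threshold was not counted. By edgeR with no filter, *Col8a1* (-1.46, adjusted p = 0.00232), *Col8a2* (-0.82, adjusted p = 0.0442) and *Col18a1*, which had at most 1 count in each untreated 72 h library (adjusted p = 0.0468), were called. DESeq2 gave adjusted p = 0.0805 for *Col8a1*, 0.539 for *Col8a2* and none for *Col18a1*. The prior degrees of freedom of edgeR's dispersions, a median of 6.56 with the filter, were infinite without it, so that fit gave each gene no spread of its own.

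**Figure D5:**
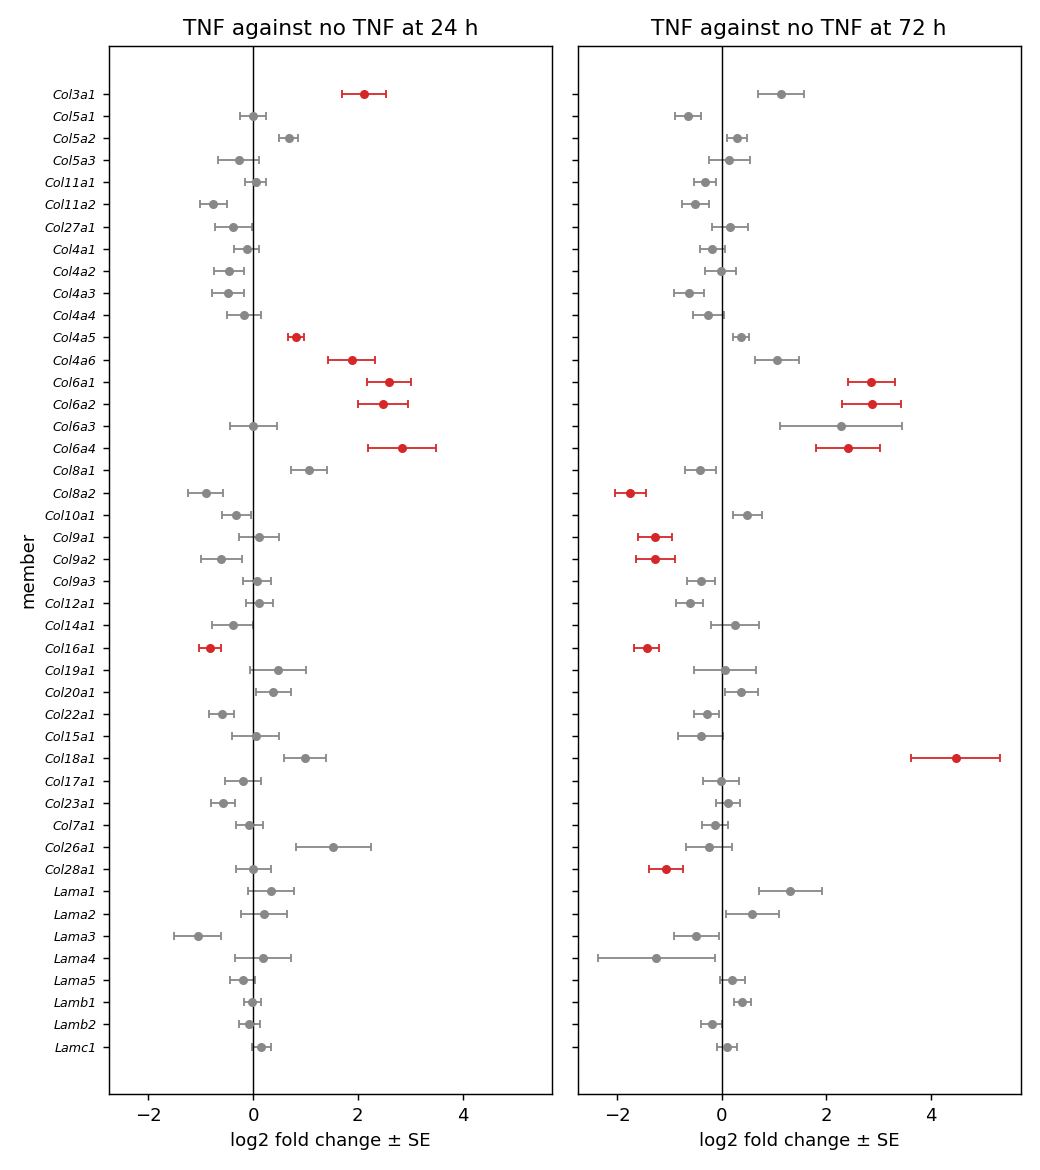
Log2 fold change ± SE (x axis) of each member in the plot of levels (y axis) with TNF at 24 h (left) and 72 h (right), with called members in red. The type VI chains *Col6a1*, *Col6a2* and *Col6a4* lay to the right at both times, *Col16a1* to the left, and no laminin was called. The value of *Col18a1* at 72 h was fitted against libraries with at most 1 count.

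Promoter sequence was compared with these calls as a description. RefSeq windows (GRCm38.p6) from 250 bases before to 50 bases after the start were at hand for 40 of the 55 members, in 44 windows. The NF-kB consensus, searched on both strands, matched in 9 of the 44 windows (20.5%) and in 8.46% of all 32851 windows. Of the type VI chains raised by TNF, *Col6a2* and *Col6a4* had a match and *Col6a1* had none, while its window held TGACTCA, an AP-1 motif found in 5.2% of all windows and in 2.27% of the member windows. The matches upstream of these starts are shown with the motif in capitals and the position of its first base counted from the start.
Col6a4, position -67, chr9:106096739-106096768, minus strand: ctgtgtgctaGGGGATTCCCaggctcacac
Col6a2, position -81, chr10:76623692-76623721, minus strand: ggggggggggGGGGGGCTCCttcctttacg
Col6a1, position -90, chr10:76726118-76726144, minus strand: gctgatgctgTGACTCActcagctttg
The match of *Col6a2* lay at the end of a run of G. Positions are counted from the RefSeq starts, and by GENCODE M21 the matches of *Col6a4* and *Col6a1* lay inside the gene. Matches were also present in *Col9a1* and *Col9a2*, which were lower with TNF at 72 h, and in *Col4a2*, *Col27a1* and *Lamb3*, which were not called or not tested with TNF. None was present in the other members called higher with TNF (*Col3a1*, *Col4a5*, *Col4a6* and *Col18a1*), nor in *Col8a2*, *Col16a1* and *Col28a1*, which were called lower. GGGCGG, the Sp1 core, was in 59.1% of the member windows and 35.7% of all windows, CCAAT in 31.8% and 37.4%, and TATAAA in 11.4% and 13.6%.

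The genes that process, bind and accompany these chains were read from 3 lists. Of 33 matrix assembly enzymes, 29 were tested, and from NSPs to 1 week 11 rose and 9 fell, where 29.6% of all genes were called higher and 29.1% lower. With edgeR's test the collagen lysyl hydroxylase *Plod2* (2.30) and the prolyl hydroxylases *P4ha1* (2.19) and *P3h2* (4.58) rose, while the collagen chaperone *Serpinh1* (-0.50) and the hydroxylase subunit *P4hb* (-0.86) fell. With TNF at 72 h, where 4.35% of all genes were called higher and 5.21% lower, 1 enzyme rose, the procollagen protease *Adamts14* (1.99), and 7 fell, among them *P3h2* (-1.26), *Plod1* (-1.04) and the procollagen protease *Adamts2* (-1.82). Of 15 receptors tested, 8 rose and none fell at 24 h against NSPs by edgeR's test, where 27.2% of all genes were called higher and 25.5% lower. The laminin-binding integrin chain *Itga3* averaged 0.952 CPM in NSPs and rose to 24.4 CPM by 24 h and 115 CPM by 1 week, and the collagen-binding chain *Itga1* from 13.7 to 75.1 CPM at 24 h. With TNF, no receptor rose, and 1 fell at 24 h, where 1.32% of all genes were called lower, and 4 at 72 h, where 5.21% were, among them the collagen receptors *Lair1* (-1.58) and *Mrc2* (-1.49). *Itga3* was the receptor whose TNF effect differed between the times (-1.24, 72 h minus 24 h).

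Of 14 tested companions of basement membranes, 8 rose and 3 fell at 24 h against NSPs, and 8 rose and 6 fell at 1 week, beside the same shares of all genes as above. *Nid2* averaged 21.9 CPM in NSPs and rose to 168 CPM by 1 week, and the matricellular protein *Sparc* from 237 to 1880 CPM. The other nidogen, *Nid1*, fell from 4.52 to 0.441 CPM, and *Fbln2*, fibulin-2, from 391 to 1.40 CPM. With TNF for 24 h, 2 companions rose, *Nid2* (0.87) and *Ntn4* (0.64), and 1 fell, *Frem2* (-0.70), where 3.5% of all genes were called. With TNF for 72 h, 3 rose, *Nid2* (0.52), *Fbln2* (1.15) and *Hspg2*, the perlecan gene (2.07, from 55.3 to 232 CPM), and 3 fell, *Sparc* (-0.67), *Frem2* (-0.70) and the integrin ligand *Npnt* (-1.06), where 9.56% of all genes were called. *Fbln2* was the companion with a called difference of the TNF effect between the times (1.95).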

How the data were processed

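Total RNA was extracted with TRIzol, treated with DNase, depleted of ribosomal RNA and made into stranded TruSeq libraries. RNA quality was given as a range and not per library, and its part was not tested. The authors used FastQC and Trim Galore on the reads, STAR and SAMtools for alignment to mm10 and featureCounts for counting, and deposited raw counts per gene. Versions and the strand setting are not given in the sources used here. Their own tests used DESeq2. Of the 54838 gene IDs, 54809 matched GENCODE M21, the source of names, positions and exon lengths, and all columns were used.

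The counts were tested with edgeR 4.0.16 (limma 3.58.1, R 4.3.3) by quasi-likelihood (18 libraries, a mean for each condition), TMM factors, filterByExpr and Benjamini-Hochberg adjustment at 0.05. DESeq2 was an alternative. CPM were relative to the TMM-scaled total of the tested genes. Named members are all those called in the interaction and, per comparison, the 6 largest rises and 6 largest falls with a mean of at least 1 CPM in either condition. Members and lists were chosen with earlier results of these data known. A fold against libraries that all had at most 3 counts is a bound, from 3 counts per library. No source used here names molecular identifiers, so depth (12509693 to 22549627 counts per library) and floors cover counting error only. No replicate pair was identical within counting error (chi-square statistic over its degrees of freedom from 3.71 to 55.4). The fits were tested on simulated data. Python 3.11.15 with numpy, pandas and matplotlib drew figures. Members outside this rule are described for their class. Alternatives were DESeq2, RLE factors, other count filters, only the groups compared, a replicate block, a fold limit, the longest transcript as length, and leaving out libraries. Whether replicate numbers pair libraries is not known. Coding runs used the longest annotated coding sequence per gene, and reads shared between related chains or between genes on opposite strands, such as *Col4a3* and its antisense neighbour, are uncertain. The values of 1 tested laminin are not reported here.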

Additional observations from a re-analysis of the deposited data

How the results depend on the processing

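The members' counts of calls moved by more than 1.5 times under few settings. With only genes of at least 10 counts in every library, 14 members were higher and 5 lower at 24 h against NSPs, 5 higher and 5 lower at 72 h against 24 h, 13 higher at 1 week against NSPs, 2 higher with TNF at 24 h, and 1 higher and 2 lower with TNF at 72 h, since fewer members were tested. Under this filter *Col9a2* (adjusted p = 0.0560) and *Col28a1* (0.0594) lost their calls with TNF at 72 h. With edgeR and no filter, 3 were lower with TNF at 24 h, and in the difference of the TNF effect between the times 1 was higher (*Col18a1*) and 2 were lower (*Col8a1* and *Col8a2*), in a fit whose prior degrees of freedom were infinite. With only the groups compared, *Col4a6* with TNF at 24 h (adjusted p = 0.0745) and *Col6a4* and *Col28a1* with TNF at 72 h (0.0712 and 0.0594) lost theirs. With a log2 fold change of at least 1, 0 were lower with TNF at 24 h, and 85 calls were made in the 3 lists of other genes against 145, and *Col5a2* and *Col11a1* at 1 week against 72 h and *Col4a5* and *Col16a1* with TNF at 24 h fell under the limit. With the longest transcript as length, *Col4a5* to *Col4a1* was 3.23 in NSPs and *Lamb2* to *Lamb1* 0.908 in NSPs and 9.17 at 1 week. Without both replicate 1 libraries with TNF, a setting chosen after seeing the data, 2 were lower at 24 h and 1 was lower in the difference between the times.

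Whether the replicate numbers pair the libraries is not known. Deviations of same-numbered libraries from their condition means correlated at -0.416 to 0.303 between the conditions compared, which cannot settle it. The 24 h and 72 h conditions with TNF were not compared with each other in this way. With the replicate block, 22 members were higher and 8 lower at 24 h against NSPs, 9 and 9 at 72 h against 24 h, 6 and 9 at 1 week against 72 h, 20 and 11 at 1 week against NSPs, 7 and 1 with TNF at 24 h, 4 and 5 with TNF at 72 h, and 0 and 0 in the difference of the TNF effect. With the block and 72 h replicate 3 unpaired, 3 were higher at 1 week against 72 h, and 9 calls named by rule were lost, *Col4a6* at 72 h against 24 h (adjusted p = 0.0600), *Col27a1*, *Col4a3*, *Col11a1* and *Col26a1* at 1 week against 72 h (0.0909, 0.0832, 0.120 and 0.133), *Col4a6* with TNF at 24 h (0.0547), and *Col6a4*, *Col9a1* and *Col28a1* with TNF at 72 h (0.0634, 0.0618 and 0.131).

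Leaving out each library in turn gave 20 to 22 higher and 6 to 7 lower at 24 h against NSPs, 6 to 9 and 8 to 10 at 72 h against 24 h, 3 to 5 and 6 to 8 at 1 week against 72 h, 19 to 21 and 11 at 1 week against NSPs, 3 to 6 and 0 to 1 with TNF at 24 h, and 3 to 5 and 2 to 5 with TNF at 72 h, and 0 in the difference of the TNF effect. The ratios per length ranged from 1.98 to 2.34 in NSPs and 0.842 to 1.02 at 1 week for *Col4a1* to *Col4a2*, 3.47 to 3.64 and 319 to 380 for *Col4a5* to *Col4a1*, 1.20 to 1.78 and 14.0 to 15.5 for *Lamb2* to *Lamb1*, 0.701 to 0.840 and 0.272 to 0.311 for the alpha to gamma sums, and 0.986 to 1.25 and 0.980 to 1.08 for the beta to gamma sums. Of the fold changes named by rule, none changed direction in any setting. The rises with TNF at 24 h were 3 without 24 h replicate 2, and those from 72 h to 1 week were 3 without 72 h replicate 2 or 3. The falls with TNF at 24 h were 0 without any of the 24 h replicates or without replicate 2 with TNF, and those at 72 h were 2 without 72 h replicate 2 or replicate 1 with TNF and 3 without 72 h replicate 3 or replicate 2 with TNF. Members under 1 CPM rest on few counts.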
